A study of Drosophila melanogaster with 3 samples.

Results

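The genes described here encode the proteins of the large subunit of the cytoplasmic ribosome of Drosophila melanogaster. They were taken from the Ensembl BDGP6 annotation as all protein-coding genes whose symbol begins with RpL and a digit or with RpLP and a digit, which leaves out the mitochondrial series named mRpL. The choice used no measured value and gave 54 of 13968 protein-coding genes, called RpL genes below. The study mapped where FoxP, a forkhead-family transcription factor also named fd85E, associates with the genome of whole prepupae, the stage at the onset of metamorphosis. All 3 samples were biological replicates of 1 group: a transgenic fly line carrying FoxP with GFP fused to its C terminus, males and females together, age within the stage unknown, with the protein recovered by an antibody against GFP. The labels do not say which promoter drives the transgene, no untagged or untreated group was among the samples, and the signal of a whole animal cannot be split into tissues. The data are lists of enriched regions (chromatin immunoprecipitation sequencing, ChIP-seq) in dm6 coordinates: 1 list per replicate, 1 from the pooled reads of all 3, and the thresholded part of the pooled list that passed the authors' step on irreproducible discovery rate.

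A ribosome makes protein from messenger RNA, and its large subunit holds the site where peptide bonds form and the tunnel through which the new chain leaves. Cells need most of its proteins in equal numbers, and in flies the loss of 1 copy of many of these genes gives the Minute phenotype of slow growth and thin bristles. Their transcripts in flies and mammals begin within a run of pyrimidines, and in flies transcription starts at a polypyrimidine initiator, known as the TCT motif, in place of the usual initiator. The starts printed below show it at genes that had a FoxP-GFP summit, followed by a pair of genes with neither.

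Each stretch runs from 50 bases upstream to 25 bases downstream of an annotated start, 5′ to 3′ on the gene's strand, from the Release 6 (dm6) genome of RefSeq. Capitals mark the initiator, searched as the letters CTTT with a pyrimidine on either side and the C within 10 bp of a start. The first set shows 9 of the 30 genes with a thresholded summit within 500 bp of a start, from high to low signal. They are not the 9 of highest signal. All 9 carry the initiator, which 4 of the 30 lack. The summit lies inside the printed stretch at RpL18, RpL27 and RpL8 and upstream of it at the others.
RpL14: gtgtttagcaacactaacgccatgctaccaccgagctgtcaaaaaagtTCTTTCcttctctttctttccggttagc
RpL32: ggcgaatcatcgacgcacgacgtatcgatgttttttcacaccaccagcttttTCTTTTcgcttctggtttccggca
RpL18: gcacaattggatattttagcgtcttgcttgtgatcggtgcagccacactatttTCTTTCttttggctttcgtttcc
RpL27: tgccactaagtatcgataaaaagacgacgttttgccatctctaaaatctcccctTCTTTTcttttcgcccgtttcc
RpL34b: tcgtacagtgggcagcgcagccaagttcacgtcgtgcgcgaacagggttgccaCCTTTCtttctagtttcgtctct
RpL23A: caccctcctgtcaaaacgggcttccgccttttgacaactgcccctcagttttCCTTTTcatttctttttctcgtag
RpL8: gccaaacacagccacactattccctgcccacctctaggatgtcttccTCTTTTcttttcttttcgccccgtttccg
RpLP1: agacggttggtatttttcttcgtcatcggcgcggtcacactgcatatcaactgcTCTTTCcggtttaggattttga
RpL4: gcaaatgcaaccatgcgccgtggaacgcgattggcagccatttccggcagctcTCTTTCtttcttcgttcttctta

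The next pair is shown because replicates 2 and 3 at RpL13A, and all 3 replicates at RpL35A, had a summit among their 2415 best-ranked regions at these starts and the pooled list had none.
RpL13A: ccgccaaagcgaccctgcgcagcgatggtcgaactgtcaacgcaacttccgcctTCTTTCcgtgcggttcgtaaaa
RpL35A: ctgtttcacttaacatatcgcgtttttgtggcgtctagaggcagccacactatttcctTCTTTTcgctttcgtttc
The last pair had no summit in any list and no match to the initiator.
RpL24-like: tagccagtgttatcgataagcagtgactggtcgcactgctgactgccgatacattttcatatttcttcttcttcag
RpL10Aa: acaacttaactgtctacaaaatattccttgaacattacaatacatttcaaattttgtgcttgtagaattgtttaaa
In the first pair the C of the initiator lies 5 bp (RpL13A) and 9 bp (RpL35A) downstream of the annotated start, and in the first set between -2 bp (RpL8) and 5 bp (RpLP1 and RpL27). The printed stretches of RpL27 and RpL24-like both hold TATCGATA, the site of the factor DREF. RpL37-2, not printed, also had no summit in any list but carries the initiator, with its C at 4 bp. Of the 24 RpL genes without a thresholded summit, 20 carry the initiator, so the printed starts do not show how often summit and initiator occur together.

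The thresholded list had a summit within 500 bp of a start at 30 of 54 RpL genes, or 55.6% (95% Wilson interval 42.4 to 68.0%, covering the counting error over genes). Of all protein-coding genes 8.96% had one. The lists of the separate replicates gave close shares when each was reduced to its 2415 regions of highest signal, as many as the thresholded list holds. There 30 RpL genes had a summit in replicate 1, 30 in replicate 2 and 33 in replicate 3, against 9.29%, 9.64% and 9.34% of all protein-coding genes. In all 3 of these shortened lists 24 RpL genes (44.4%) had one, against 5.38% of all genes.

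The whole lists are looser, since they also hold the background regions that the reproducibility step needs as input, with 30000 regions for the pooled reads and 30000, 24326 and 22698 for replicates 1, 2 and 3. A pooled summit was near 45 RpL genes (83.3%) and near 37.8% of all genes. In the whole list of replicate 1 the count was 47 RpL genes with a background of 39.3%, in that of replicate 2 it was 46 with 35.8%, and in that of replicate 3 it was 46 with 37.5%. All 3 whole lists had a summit near 40 RpL genes (74.1%), against 22.8% of all genes. All 30 genes with a thresholded summit were among these 40.

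**Figure D1:**
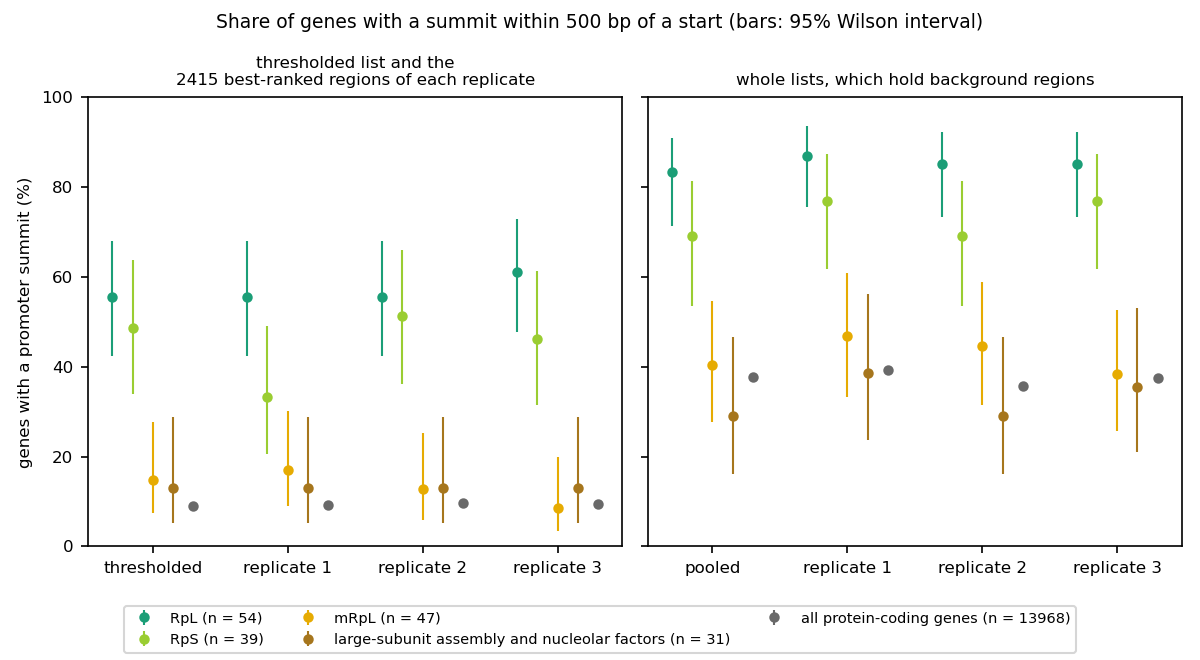
Percentage of genes with a summit within 500 bp of a start (vertical axis) in each list (horizontal axis), with points coloured by gene group and bars for 95% Wilson intervals over genes. In the left panel RpL genes sit between 55.6% and 61.1% and all protein-coding genes between 8.96% and 9.64%; the right panel shows the whole lists with their background regions.

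A signal value is the authors' score for a region, of unstated scale, and is read only within its own list. Among the 30 thresholded summits the median was 261 (138.8 to 425.1), against a median of 203.5 over the 1252 genes of all kinds with such a summit. In the replicate lists the median rank of the RpL summits was 1507, 1244 and 1028, and that of all genes with a summit was 6658, 5859 and 6100.

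RpL41, a very small protein lying between the subunits, had the highest signal at 425, which is rank 190 of 2415. Its replicate summits had signal 143, 159 and 128 and ranks 243, 150 and 177 in replicates 1, 2 and 3. RpL24, which also makes contact with the small subunit, had signal 378 (rank 249) and replicate ranks 196, 290 and 363. RpL41 and RpL24 were therefore both in the best-ranked part of every replicate list.

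RpL14, a protein without a counterpart in bacteria, had signal 406 at rank 210, in the region 3L:8600745-8601160. Its replicate values were 151, 132 and 123, at ranks 209, 255 and 196. RpL7 had signal 398 at rank 222, in 2L:10200830-10201245, and replicate ranks 402, 185 and 128. RpL7 was thus higher in replicates 2 and 3 than in replicate 1, while the ranks of RpL14 lay close together.

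RpL30, which in yeast binds its own transcript, had signal 377 at rank 251, with replicate ranks 195, 482 and 193. RpL32, whose transcript is a customary reference in fly expression work, had signal 368 at rank 266. Its replicate ranks were 283, 238 and 299. Every one of these replicate ranks lies well inside the best 2415.

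RpL13 had signal 304 (rank 428; replicate ranks 529, 552 and 388). RpL18 had signal 303 (rank 431; replicate ranks 432, 720 and 434). RpL27 had signal 293 (rank 472; replicate ranks 497, 566 and 568). These 3 neighbours in the order overlap in their replicate ranks and are not told apart. RpL19, a protein near the tunnel exit, had signal 288 (rank 497) with replicate ranks of 247, 761 and 1349, a wider spread than those of RpL13, RpL18 and RpL27. RpL34b had signal 286 (rank 504) and replicate ranks 667, 418 and 609.

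The ribosomal stalk recruits the GTPase factors of translation, and 3 of its 4 genes had a thresholded summit. RpLP0, the base of the stalk, had signal 242 (rank 751), with replicate signal values of 91.8, 96.2 and 51.4. RpLP1 had signal 227 and RpL12, which sits beside the stalk base, 185. RpLP2, the partner of RpLP1 in the stalk dimers, had a summit in the pooled list with signal 103 (rank 3938) and in each replicate list, at ranks 4471, 10588 and 2175. It was therefore below the threshold and within the best 2415 regions of replicate 3 alone.

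RpL5 and RpL11 enter the subunit together with 5S ribosomal RNA as a preformed particle. RpL11 had a thresholded summit (signal 274; replicate ranks 1825, 543 and 359). RpL5 had a pooled summit of signal 89.1 (rank 5050) with replicate ranks 5991, 4492 and 5966. The replicate ranks of these partners do not overlap. Among proteins that reach toward the catalytic core or the tunnel wall, RpL3 (198), RpL4 (199) and RpL8 (251) had thresholded summits. RpL10, which joins late in assembly, had a pooled signal of 78.6 (rank 6262) and replicate ranks 4433, 4804 and 9697. RpL3 stood at rank 640 in replicate 1, 1351 in replicate 2 and 5422 in replicate 3.

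Around the mouth of the exit tunnel, where the new chain meets its first partners, 6 of 8 genes had a thresholded summit. RpL23A, a docking site for factors that receive the chain, had signal 270 and replicate ranks 926, 655 and 367. RpL31 had 253, RpL17 and RpL22 each 194, and RpL39, which lines the tunnel, 184. RpL26 (pooled signal 118, rank 3109) and RpL35 (pooled signal 125, rank 2752) fell short of the threshold. RpL40, made as a fusion with ubiquitin, had a pooled signal of 66.0 with summits in replicates 1 and 3.

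Relatives of standard members were less uniform: 3 of the 9 paralogs and related genes had a thresholded summit. Of the RpL34 pair, RpL34b had signal 286 and RpL34a 193, and the replicate ranks of RpL34a were 672, 3001 and 971. Those of RpL34b all lay between 418 and 667. RpLP0-like, whose yeast counterpart is an assembly factor and no part of the finished stalk, had signal 184 with replicate ranks 4009, 1161 and 871. RpL22 had replicate ranks of 1307, 1423 and 1815, whereas its testis-enriched paralog RpL22-like had a pooled signal of 34.7 (rank 27312 of 30000) and a summit in replicate 2 only. Of the RpL37 pair, RpL37-1 had a pooled signal of 53.0 and RpL37-2 no summit in any list. RpL10Ab had a pooled signal of 78.7 and RpL10Aa no summit in any list. In each of these 3 pairs one gene thus had a weak summit or none, and only the RpL22 pair held a gene with a thresholded summit.

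The 4 thresholded summits of lowest signal were at RpLP0-like, RpL28, RpL9 and RpL23. RpL28 had signal 164 (rank 1671), RpL9 149 (rank 2005) and RpL23 139 (rank 2271), where the lowest value of the list is 134.2. RpL9 ranked 1535, 1703 and 2811 in the replicates. RpL23 ranked 1186 in replicate 1 but 4574 and 3569 in the others, and it was the single RpL gene whose region was held by only 1 replicate. Counting an overlap of at least 1 bp with the best 2415 regions of a replicate, 23 of the 30 regions were held by 3 replicates and 6 by 2. Those 23 genes are 42.6% of RpL genes, and a region held by all 3 replicates lay near 5.24% of all genes.

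Just below the threshold stood RpL35 (125), RpL7A (122), RpL7-like (118) and RpL26 (118) of the pooled list. RpL35 had no summit in replicate 1 and ranks 3293 and 1084 in replicates 2 and 3. RpL7A stood at 5002, 3162 and 2313, RpL7-like at 2416, 5092 and 9547, and RpL26 at 3675, 2471 and 3220. Their replicate ranks overlap those of RpL9 and RpL23, so the genes on either side of the threshold form no separate groups. Of the members not yet given, RpL37A had a thresholded summit of signal 269, and RpL29, RpL38, RpL15 and RpL21, named to complete the list, had pooled signal values from 109 down to 41.5.

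**Figure D2:**
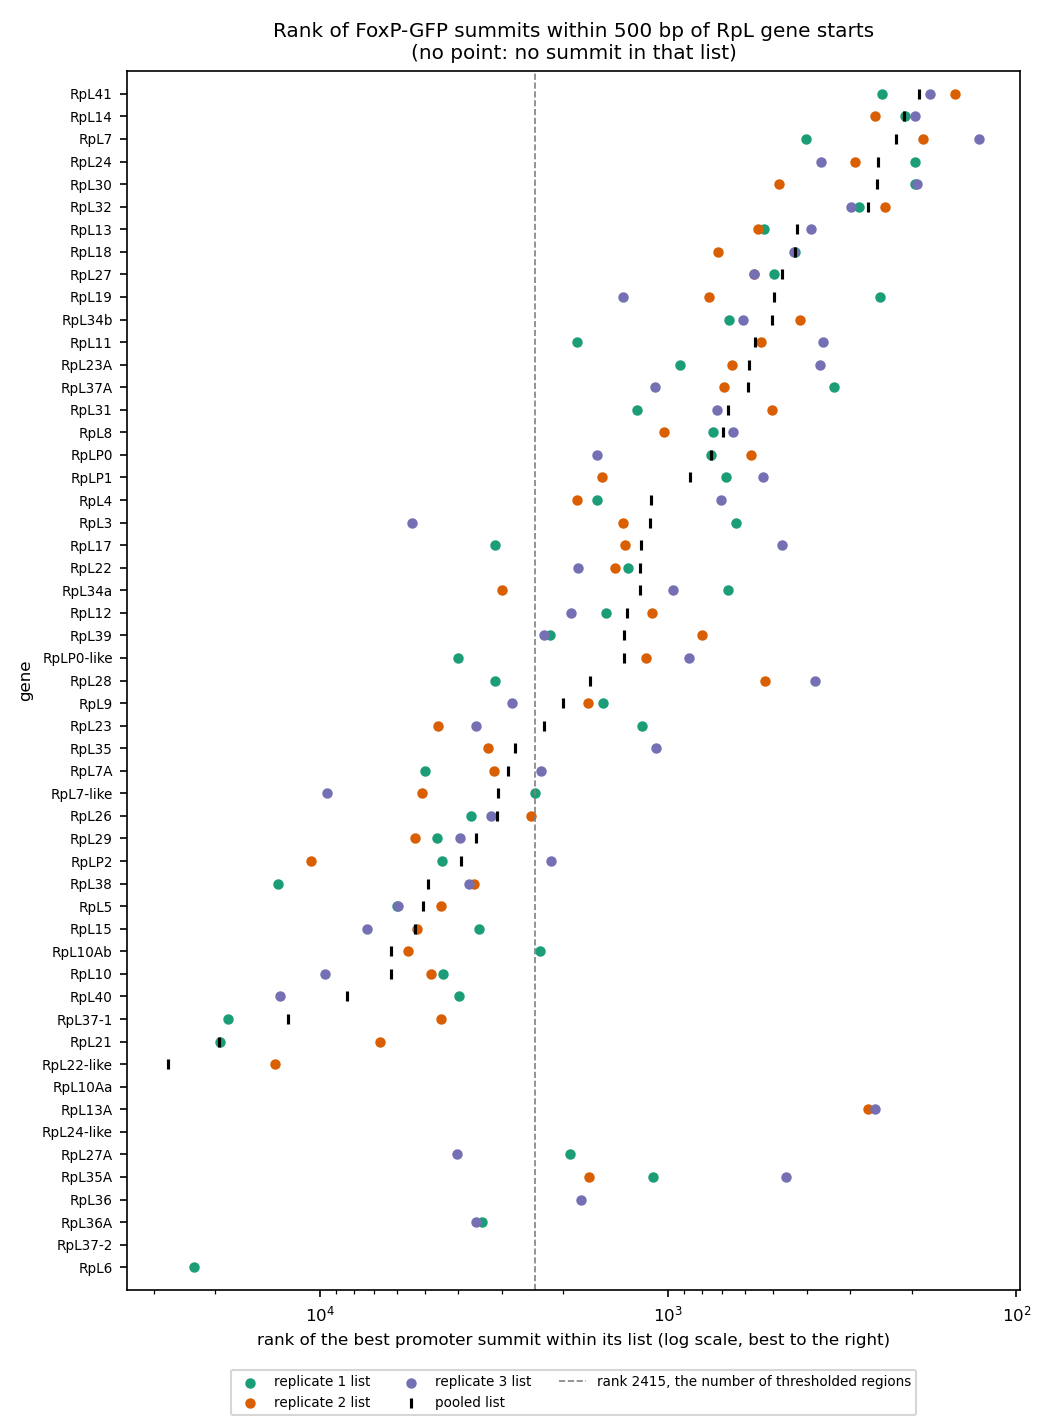
Rank of the best summit within 500 bp of a start (horizontal axis, log scale, best to the right) for 53 of the 54 RpL genes (vertical axis, ordered by pooled signal), with coloured points for the replicate lists and black ticks for the pooled list. RpL13A and RpL35A have replicate points to the right of the dashed line at rank 2415 and no black tick, and RpL10Aa, RpL24-like and RpL37-2 have no mark at all.

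Of the 24 RpL genes without a thresholded summit, 15 had one in the pooled list. The other 9 had no pooled summit, and these were not alike. RpL37-2, RpL24-like and RpL10Aa had none in any list, and their nearest pooled summits lay 3427, 18415 and 5528 bp away. RpL6 had a summit in replicate 1 only, at rank 22914 of 30000. RpL36 had one in replicate 3 only, at rank 1783, 13 bp upstream of a start. RpL36A had summits in replicates 1 and 3 at ranks 3428 and 3559, and RpL27A in the same replicates at ranks 1910 and 4027. The genes in this paragraph and the next that hold a summit in some list but none in the pooled list were chosen for naming after their values were seen.

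RpL13A and RpL35A stood out among these 9 by their replicate values. RpL13A had signal 130 at rank 266 in replicate 2 and signal 112 at rank 255 in replicate 3, at -69 and -49 bp, and no summit in replicate 1, whose nearest one was 1362 bp away. RpL35A had a summit in all 3 replicates, with signal 77.8, 57.3 and 88.5 at ranks 1106, 1693 and 459, at 36, -14 and 33 bp. Both starts carry the initiator printed above. In the pooled list, made from the same reads, the nearest summit to a start was 882 bp away for RpL13A and 3928 bp away for RpL35A. In the replicate lists RpL13A thus ranked with RpL32 and RpL14, genes of the highest pooled signal.

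Counting genes by the replicates alone gave a close total with a few other genes. A summit among the best 2415 regions of at least 2 replicates was found at 31 RpL genes (57.4%) and at 8.71% of all genes. These 31 are the 30 genes of the thresholded list without RpL23 and with RpL13A and RpL35A. Over the genome 1216 genes met this count and 52 of them had no pooled summit, of which these RpL genes were 2. Why the pooled list lacks them was not tested.

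The summits sat close to the starts. In the thresholded list their median position was -41.5 bp (negative values are upstream; quartiles -75 and -3.25 bp). Upstream of the start lay 23 of 30 (76.7%), against 81.7% of all genes with a thresholded summit. Within 100 bp of the nearest start lay 26 of 30 (86.7%), compared with 420 of the 1252 genes of all kinds with a thresholded summit (33.6%), whose median was -124 bp (quartiles -219 and -34.8 bp). At the same 30 genes the median position was -44.5, -46.5 and -35 bp in replicates 1, 2 and 3, a mean of -42 ± 6.14 bp (SD, n = 3). This SD describes repeat calls at the same 30 genes, chosen from the pooled reads, and not the spread among genes. The quartile ranges of RpL genes and of all genes overlap, and all lists share 1 control file.

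The closeness of the replicates in position varied by gene. Among the tightest, RpLP0 had the summit at -56, -57 and -60 bp, RpL39 at 2, 3 and 3 bp and RpL11 at -10, -14 and -10 bp. Wider apart than these, RpL14 had it at -38, -53 and -53 bp and RpL41 at -55, -88 and -60 bp. The SDs of RpL14 (8.66 bp) and RpL41 (17.8 bp) are still below the median over RpL genes given next. Over the 40 genes with a summit in all 3 whole lists, the SD of the summit's genome position had a median of 24.9 bp (0.577 bp at RpL39 to 179 bp at RpL15), and 24 of them (60%) had an SD of at most 30 bp. For the 3181 genes of all kinds the median SD was 60.1 bp and 31.9% were within 30 bp. The RpL summits also ranked higher than those of most genes, and how much of the tighter placement goes with signal was not tested.

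Thresholded summits farther than 100 bp from a start were found at RpL32 (-125 bp), RpL34b (-133 bp) and RpL28 (-354 bp), among others. Each of these 3 genes has a divergent neighbour, which here means that the nearest other gene start is of a gene on the other strand. Whether that start lies upstream was not part of the count. At RpL28 the start of its neighbour eIF1 was nearer to the summit. RpL28, a gene with 5 annotated starts named here after its values were seen, had its replicate 1 summit at -305 bp and those of replicates 2 and 3 at -48 and -55 bp, at ranks 526 and 379. The region that stands for RpL28 in the thresholded list does not contain these summits of replicates 2 and 3. Both replicates had 2 summits within 500 bp of a start of RpL28, and only the one of higher signal is given here.

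**Figure D3:**
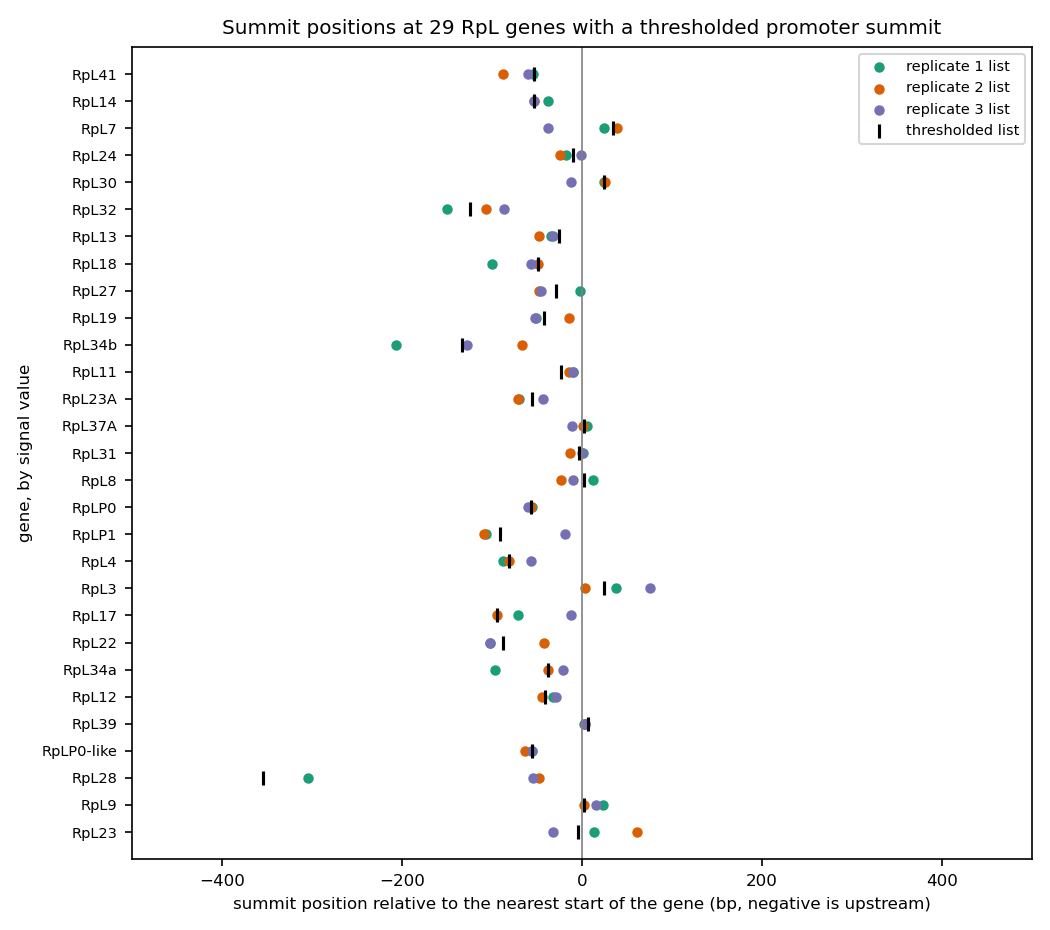
Summit position relative to the nearest start of the gene (horizontal axis, bp, negative is upstream) at 29 of the 30 RpL genes with a thresholded summit (vertical axis, by signal), with coloured points for replicates and black ticks for the thresholded list. Most points gather between -100 bp and the start, and RpL28 shows its thresholded and replicate 1 summits near -354 and -305 bp apart from the others.

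**Figure D4:**
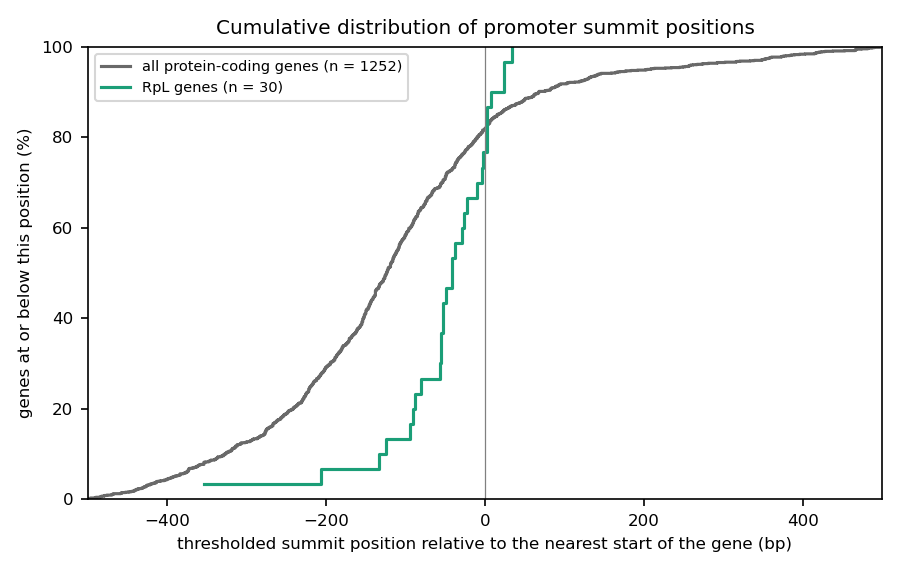
Percentage of genes whose thresholded summit lies at or below a position (vertical axis) against that position relative to the nearest start (horizontal axis, bp) for 30 RpL genes and for all 1252 genes with such a summit. The RpL curve is steeper, with 26 of 30 summits within 100 bp of a start, and lies to the right of the curve of all genes upstream of the start.

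The initiator was found at a start of 46 of 54 (85.2%), against 4.09% of all protein-coding genes, with its C at a median of 4 bp (-2 to 9 bp) from the start. A thresholded summit was present at 26 of the 46 RpL genes with the initiator (56.5%) and at 4 of the 8 without it (50%), too few to compare. Of the RpS genes 16 of 29 with the initiator (55.2%) and 3 of 10 without it (30%) had one. The 4 RpL genes with a summit and no initiator were RpL12, RpL17, RpL34a and RpLP0-like, and the 4 with neither were RpL10Aa, RpL22-like, RpL24-like and RpL26; 5 of these 8 are paralogs or relatives. At the 26 genes with both, the summit lay upstream of the C in 22, at a median of -52.5 bp. Among genes that encode neither large-subunit nor small-subunit proteins, 91 of 496 with the same letters at a start had a thresholded summit (18.4%), and 1112 of 13379 without them (8.31%).

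The start of a neighbour within 500 bp was present at many genes with a summit, of the RpL group and of all kinds. The strand of the neighbour was looked at for the RpL genes only. Of the 30 RpL genes, 17 (56.7%) had the start of another protein-coding gene within 500 bp, each of them divergent, against 5 of the 24 others (20.8%). Of the 1252 genes of all kinds with a thresholded summit 603 (48.2%) had a neighbour start that close, on either strand. Of all protein-coding genes 30.9% had one, so the share at the 30 RpL genes lies near that of other genes with a summit. Seen the other way, a thresholded summit was present at 17 of 22 RpL genes with such a neighbour (77.3%) and at 13 of 32 without one (40.6%). Over all protein-coding genes the corresponding shares were 14.0% of 4309 and 6.72% of 9659. A summit between divergent starts counts for both genes, so these shares do not say which of the genes it belongs to.

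The 17 pairs start between 30 bp (RpL7 and Ripalpha) and 479 bp (RpL31 and CG12929) apart. Between them lie RpL4 and BCAS2 at 465 bp, RpL32 and CG7943 at 309 bp and RpL3 and CG6693 at 255 bp. Among the closer pairs are RpL13 and Dref at 84 bp, RpLP0 and CG7130 at 111 bp, RpL14 and Nelf-E at 127 bp and RpL19 and CG3776 at 131 bp. Nelf-E encodes a subunit of the complex that holds RNA polymerase II near the start, and Dref encodes the factor that binds TATCGATA. The start of the RpL gene was nearer to the summit at 27 of 30 genes. The genes where the neighbour was nearer include RpL28 and RpLP0-like, the last beside 14-3-3zeta.

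In the 300 bp from 250 bp upstream to 50 bp downstream of the outermost start, several letters known from ribosomal protein promoters were more frequent among RpL genes than among all genes, on both strands. TATCGATA was found at 27.8% of RpL genes and 9.36% of all, GGTCACAC, the core of the motif bound by M1BP, at 16.7% and 7.69%, and CACGTG, bound by Myc, at 14.8% and 4.20%. Between RpL genes with and without a thresholded summit the shares were 23.3% against 33.3% for TATCGATA, 20.0% against 12.5% for GGTCACAC and 16.7% against 12.5% for CACGTG. The forkhead letters TGTTTAC or TATTTAC were at 13.3% of the 30 RpL genes with a summit and 29.2% of the 24 without, and at 19.5% of all genes with a thresholded summit and 18.1% of all genes. GAGAG was found at 22.2% of RpL genes and 29.7% of all, and TATAAA at 44.4% and 45.8%. The shares with and without a summit rest on 3 to 8 RpL genes each for TATCGATA, GGTCACAC and CACGTG and on 4 and 7 for the forkhead letters. Matches of different motifs may overlap, and TATCGATA and CACGTG read the same on both strands. A match describes the letters in this window and is not a binding site.

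The genes lie on the 5 large arms, and none is on chromosome 4 or Y. A thresholded summit was present at 7 of 13 RpL genes on 2L, 9 of 14 on 2R, 6 of 10 on 3L, 6 of 11 on 3R and 2 of 6 on X. The X has the lowest share, of only 6 genes. The share of all protein-coding genes on each arm is not given, so these counts are not read as a trait of RpL genes. RpL genes are compact, with a median length of 1315 bp against 2164 bp for all protein-coding genes, and both groups have a median of 1 annotated start.

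Other gene groups of the ribosome pathway are set here beside the 8.96% of all genes with a thresholded summit, and no difference between groups was tested. The 39 small-subunit RpS genes had 19 (48.7%) thresholded summits at a median of -14 bp, 18 (94.7%) of them within 100 bp. Of these 39 genes, 29 (74.4%) carried the initiator. In the best-ranked regions their share was 33.3% in replicate 1, 51.3% in replicate 2 and 46.2% in replicate 3. The shares of RpL genes there were 55.6%, 55.6% and 61.1%, so the gap was small in replicate 2. In the best-ranked regions of all 3 replicates the shares were 28.2% of RpS and 44.4% of RpL genes. The 47 mitochondrial mRpL genes, which encode the large subunit of the organelle's ribosome, had 7 (14.9%; 95% Wilson interval 7.41 to 27.7%, which contains the share of all genes), at a median of -160 bp and with 1 of the 7 within 100 bp, and 2 carried the initiator. Of 31 genes for large-subunit assembly and nucleolar factors, which include RpLP0-like and RpL24-like, 4 (12.9%; interval 5.13 to 28.9%, which also contains it) had one: eIF6 (655), which keeps a new large subunit from joining the small one, Ns2 (433), a nucleolar GTPase, RpLP0-like (184) and Surf6 (162). Of 8 genes for factors of ribosomal protein promoters, Dref (304) and Trf2 (193) had one, and the summit of Dref is the one counted for RpL13. Trf2 encodes the TBP relative that acts at the polypyrimidine initiator in flies. M1BP, Tbp and Top2 had no pooled summit, and Myc had a pooled signal of 50.1.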

How the data were processed

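ChIP-seq of FoxP-GFP was done on 3 biological replicates of whole prepupae, on sonicated chromatin, per the labels. The deposited lists give each region's summit and a signal value, a score of unstated scale made by the authors from aligned reads and 1 shared control file; the sources used here do not name the aligner and peak caller, and read depth is unknown. Only dm6 lists were used. A summit, column 2 plus column 10, counted for a gene within 500 bp of any start (Ensembl release 115, BDGP6 version 6.54), and the highest signal was kept. Ranks are by signal within a list. There was 1 group, so no contrast was tested. Named genes were the 12 highest and 4 lowest thresholded signals, the 4 highest below the threshold, those in no list and members of distinct role; 1 member is counted but its own values are not reported here. Members, lists, roles, motifs and printed sequences were chosen with earlier results of these data known. Python 3.11.15, pandas 2.3.3, numpy 2.4.6 and scipy 1.17.1 were used, and the counting steps were tested on simulated data.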

Additional observations from a re-analysis of the deposited data

How the results depend on the processing

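Of 43 recomputed values, 35 stayed within 1.5 times the count or within the replicate spread, 8 moved further and 0 reversed. The 30 genes with a thresholded summit ranged from 23 to 30. There were 28 in a window of 200 bp, with 6.12% of all genes, and 30 in 1000 bp, with 10.8%. Regions held by all 3 replicates gave 23, with 5.24% of all genes at the overlap of 1 bp. The count was 27 when no other gene's start might be nearer, a setting chosen after seeing the data and without a share of all genes. With each replicate left out in turn, only thresholded regions held by both others were kept. This gave 24 to 26 genes, with 5.91 to 6.22% of all genes. The main count of 30 had no such requirement, so these counts compare with the 23 held by all 3 replicates. The 40 genes with a summit in all 3 replicate lists became 24 with the best-ranked regions of each list, and the cut in list length by itself can only lower that count. The median position of -41.5 bp ranged from -51 to -41 bp on leaving out a replicate. The median signal of 261.1 rose to 280.2 in the 1207 best-ranked regions of the list, 286.4 in regions held by all 3 replicates at either overlap, and 271.9 to 280.2 on leaving out a replicate; each of these settings drops regions of low rank. The initiator was found at 31 genes within 5 bp and at 50 within 25 bp, with 2.13% and 9.04% of all genes. No paired analysis was possible because the 3 replicates form 1 group. Summits and signal of the thresholded list come from pooled reads, so leaving out a replicate changes only which regions are kept. Without counts of reads, no interval can be put on a signal value, and a gene without a summit is not shown to lack binding. The same control file served every list, so an error in it would be shared.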
